A study of Mus musculus with 18 samples.

Results

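The gp130 cytokine and STAT3 axis is described here by 8 genes: the cytokines Il6 and Lif, the receptor chains Osmr and Il6st, the transcription factor Stat3, its feedback inhibitor Socs3, and the transcription factors Cebpd and Cebpb. The members were the probe sets that the array's annotation gives to these symbols alone. They were 18 probe sets of 22626 tested, for 8 of 12393 named genes. Each gene is represented below by the probe set whose mean over the 18 arrays was highest, and other probe sets are named by their identifier.

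Balb/cJ mice received a subretinal injection of 1 uL, which detached the retina. The treated mice received 10 uM INS37217 in saline, and the control mice received saline. INS37217 (denufosol) activates the P2Y2 nucleotide receptor and was given to speed the resolution of the detachment. Collection was at 2 h, at 24 h (reattached, with gross folds) and at 7 d (folds resolved). The 6 groups were thus INS37217 2 h, saline 2 h, INS37217 24 h, saline 24 h, INS37217 7 d and saline 7 d. Each had 3 Affymetrix arrays, 18 in all, and the RNA of an array came from over 5 pooled retinas. All groups carried an injection and a detachment, and no uninjected retina was analysed here, so no value below is a change from the intact retina. The labels used here give neither age nor sex.

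Cytokines of the interleukin-6 family bind a receptor chain of their own and then share gp130, the product of Il6st. Bound gp130 activates JAK kinases, which phosphorylate STAT3, and STAT3 then enters the nucleus and switches on genes that include Socs3, whose product blocks gp130. In the retina, leukemia inhibitory factor (Lif) is known as a signal of injured photoreceptors and Müller glia, the supporting cells that span the tissue. The arrays measured RNA, so phosphorylation of STAT3 is not part of these data.

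Values are deposited RMA signals in log2 (RMA is a method that summarises the probes of a probe set). Differences are log2 differences between means of n = 3 arrays with their standard error (SE), and p-values are from limma, adjusted by Benjamini and Hochberg over all 22626 probe sets, with 0.05 as the threshold. Arrays of the same replicate number deviated together, so the value with the replicate number as a block in the model is given beside a result of a named gene where it changes the call. Replicate 1 of every group stood apart from replicates 2 and 3: within a group it correlated with them at 0.959 to 0.981, against 0.994 to 0.997 between replicates 2 and 3. The source name of 8 of the 9 INS37217 arrays does not mention INS37217, and that of saline 7 d replicate 2 gives 2 h. The titles were followed, and without saline 7 d replicate 2 no call of the 8 genes changed. Of the retinal markers, the 7 measured rod genes had mean signals between 10.1 and 13.9 in the 2 h groups. At 24 h and 7 d 6 of them stayed high, while Prph2, a protein of the photoreceptor outer segment, averaged 7.37 to 8.04. In whole retina, fewer cells of a type and less RNA per cell cannot be told apart.

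The 8 genes fell into 4 time courses. Il6 and Lif were high at 2 h and low at 24 h and 7 d, in both arms. Il6st, Stat3 and Cebpd had their highest means at 24 h. Socs3 and Cebpb were high at 2 h and lowest at 7 d, and both had higher signals in INS37217 than in saline retinas at 24 h. That difference between the arms passed the threshold with the replicate block and not without it. On its representative probe set Osmr had similar means at 2 h and 24 h and its lowest at 7 d. The plot of array values shows these courses for each gene.

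**Figure D1:**
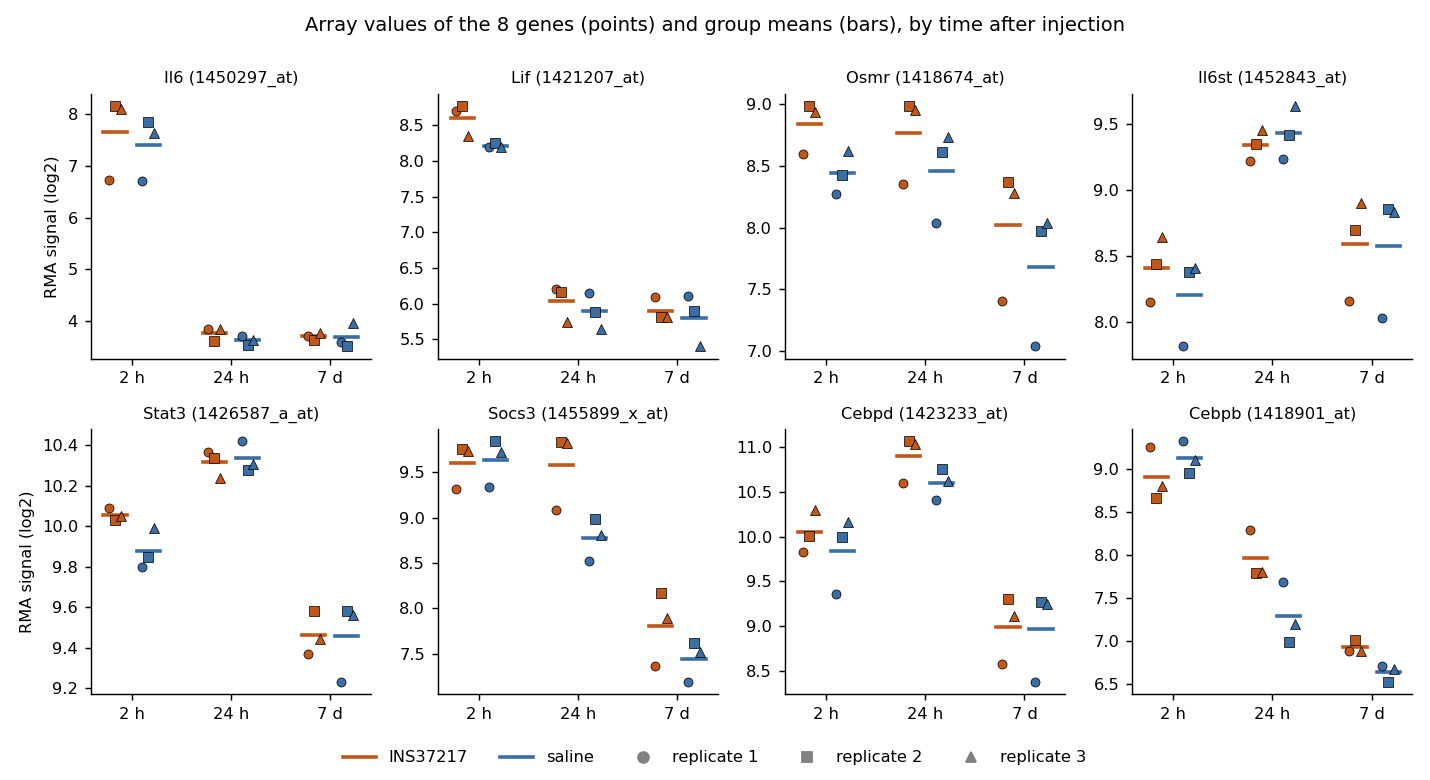
Deposited RMA signal (log2, vertical axis, a range of its own in each panel) of the representative probe set of each of the 8 genes at 2 h, 24 h and 7 d after injection. Points are single arrays, shaped by replicate number, and bars are means of 3 arrays, with INS37217 to the left of saline at each time. Il6 and Lif stand high at 2 h alone, Il6st, Stat3 and Cebpd peak at 24 h, and Socs3 and Cebpb are higher in INS37217 retinas at 24 h. This last difference passed the threshold with the replicate block and not without it.

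The 2 cytokines showed the widest spans. Il6 encodes interleukin-6, the acute inflammatory cytokine that gives the family its name. At 2 h its signals were 6.73, 8.16 and 8.11 in INS37217 retinas and 6.71, 7.85 and 7.64 in saline retinas. At 24 h they were 3.83, 3.60 and 3.84 in INS37217 retinas and 3.71, 3.53 and 3.63 in saline retinas. At 7 d they were 3.70, 3.63 and 3.76 in INS37217 retinas and 3.59, 3.50 and 3.96 in saline retinas. Every 2 h array lay above every later array, replicate 1 was the lowest at 2 h in both arms, and the 4 later groups overlapped. From 2 h to 24 h Il6 fell by 3.91 in INS37217 retinas (15.0-fold, SE 0.32, adjusted p = 8.76e-07) and fell by 3.78 in saline retinas (13.7-fold, SE 0.32, adjusted p = 1.82e-06). Between 24 h and 7 d the difference was -0.06 in INS37217 retinas (adjusted p = 1) and 0.06 in saline retinas (adjusted p = 0.995). The deposited values carry no detection call. The 14 measured genes of liver, pancreas, kidney and testis that served as a guide to background had group means of 3.30 to 7.36. This range holds the later values of Il6 and of Lif, all 7 d values of Cebpb and some of its saline 24 h values. The folds of these genes are thus approximate. It also holds the 2 h values of Il6 in replicate 1, and the saline 7 d values of Osmr (7.04) and Socs3 (7.19) in replicate 1. Of the other probe sets named below, Lif 1450160_at, Osmr 1418675_at, Stat3 1424272_at and Cebpd 1456605_at lay in this range throughout.

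Lif encodes leukemia inhibitory factor. At 2 h its signals were 8.70, 8.77 and 8.35 in INS37217 retinas and 8.19, 8.25 and 8.19 in saline retinas. The 24 h signals were 6.21, 6.17 and 5.75 in INS37217 retinas and 6.15, 5.88 and 5.65 in saline retinas. The 7 d signals were 6.09, 5.81 and 5.81 in INS37217 retinas and 6.11, 5.90 and 5.40 in saline retinas. As for Il6, all 2 h arrays lay above all later ones, and the later groups overlapped. Between 2 h and 24 h Lif fell by 2.56 in INS37217 retinas (5.91-fold, SE 0.19, adjusted p = 2.33e-07) and fell by 2.32 in saline retinas (4.98-fold, SE 0.19, adjusted p = 1.11e-06). A second probe set of Lif, 1450160_at, differed by -0.54 in INS37217 retinas (adjusted p = 0.032) and by -0.12 in saline retinas (adjusted p = 0.687).

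The promoter of Il6 is shown because its regulation is a textbook example of several factors acting on 1 gene, C/EBP proteins among them. The 250 bases before its start lie at chr5:30012864-30013113 on the plus strand (RefSeq, GRCm38.p6) and are printed 5′ to 3′. Capitals mark, from left to right, ACGTCA (the reverse complement of TGACGT, the core of a cyclic AMP response element) and TTGTGCAA (a match to the C/EBP letters TTGNNCAA). The matches do not overlap.
Il6: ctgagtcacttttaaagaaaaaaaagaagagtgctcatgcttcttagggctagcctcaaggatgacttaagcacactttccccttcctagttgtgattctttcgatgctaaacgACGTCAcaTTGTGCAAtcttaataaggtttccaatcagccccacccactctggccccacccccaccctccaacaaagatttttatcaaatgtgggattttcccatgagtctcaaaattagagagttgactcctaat
Of 32851 mouse promoters of this length, 6.47% held TGACGT and 5.65% held TTGNNCAA on either strand. Both motifs were chosen after the Il6 sequence had been read, and a match in letters is not evidence of binding.

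Of the receptor chains, Il6st changed, and the representative probe set of Osmr did not pass without the block. Il6st encodes gp130, the chain that all receptors of the family share. At 2 h its signals were 8.15, 8.44 and 8.64 in INS37217 retinas and 7.81, 8.38 and 8.41 in saline retinas. Those of 24 h were 9.22, 9.35 and 9.46 in INS37217 retinas and 9.24, 9.42 and 9.64 in saline retinas. Those of 7 d were 8.16, 8.70 and 8.90 in INS37217 retinas and 8.03, 8.86 and 8.83 in saline retinas. All 24 h arrays lay above all arrays of the other times, and the 2 h and 7 d groups overlapped. From 2 h to 24 h Il6st rose by 0.93 in INS37217 retinas (SE 0.24, adjusted p = 0.0268) and by 1.23 in saline retinas (SE 0.24, adjusted p = 0.00415).

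The call for the later decline of Il6st depended on the probe set and the block. At 7 d the representative set stood 0.76 below its 24 h level in INS37217 retinas (difference -0.76, adjusted p = 0.173, with the block 0.000104). In saline retinas the difference was -0.86 (adjusted p = 0.125, with the block 3.11e-05). Against 2 h the 7 d level differed by 0.37 in saline retinas (adjusted p = 0.525, with the block 0.023). Of its other probe sets, 1460295_s_at fell from 24 h to 7 d without the block as well, by 0.75 in INS37217 retinas (adjusted p = 0.0153) and by 0.73 in saline retinas (adjusted p = 0.0303). At 7 d it stood above 2 h, by 0.45 in INS37217 retinas (adjusted p = 0.136, with the block 0.00484) and by 1.04 in saline retinas (adjusted p = 0.000729). This probe set rose by 1.20 in INS37217 retinas (adjusted p = 0.000125) and by 1.77 in saline retinas (adjusted p = 2.95e-06) from 2 h to 24 h. The third, 1421239_at, differed by 1.28 in INS37217 retinas (adjusted p = 0.0864, with the block 6.66e-08) and rose by 1.58 in saline retinas (adjusted p = 0.0271). Its 7 d minus 24 h difference was -0.62 in INS37217 retinas (adjusted p = 0.982, with the block 0.00148) and -0.66 in saline retinas (adjusted p = 0.818, with the block 0.00113). Against 2 h its 7 d level differed by 0.66 in INS37217 retinas (adjusted p = 0.549, with the block 0.000476) and by 0.92 in saline retinas (adjusted p = 0.265, with the block 8.54e-06). The rise of the representative probe set in INS37217 retinas lost its call without INS37217 2 h replicate 1 or 2 or INS37217 24 h replicate 2 or 3, with adjusted p up to 0.121.

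Osmr encodes the chain that pairs with gp130 to bind oncostatin M. At 2 h its signals were 8.59, 8.98 and 8.93 in INS37217 retinas and 8.27, 8.42 and 8.62 in saline retinas. At 24 h they were 8.35, 8.98 and 8.95 in INS37217 retinas and 8.04, 8.61 and 8.73 in saline retinas. At 7 d they were 7.41, 8.37 and 8.28 in INS37217 retinas and 7.04, 7.97 and 8.04 in saline retinas. Replicate 1 was the lowest array of every group, and neighbouring groups in the order of means all overlapped. The 7 d minus 24 h difference was -0.74 in INS37217 retinas (SE 0.29, adjusted p = 0.405, with the block 0.00043). In saline retinas it was -0.78 (SE 0.29, adjusted p = 0.378, with the block 0.000367). The 7 d minus 2 h difference was -0.81 in INS37217 retinas (adjusted p = 0.16, with the block 8.87e-05), and -0.75 in saline retinas (adjusted p = 0.186, with the block 0.000173). Every same-numbered pair was lower at 7 d in these comparisons. The second Osmr probe set, 1418675_at, rose by 0.61 in saline retinas from 2 h to 24 h (adjusted p = 0.0125), where the representative one differed by 0.02. Its lowest saline mean was thus at 2 h, and its 7 d minus 2 h difference in saline retinas was 0.20 (adjusted p = 0.569). In INS37217 retinas that difference was -0.33 (adjusted p = 0.255).

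Stat3, the transcription factor that gp130 activates, had a narrow span of 1.84-fold between its highest and lowest group means. At 2 h its signals were 10.09, 10.03 and 10.05 in INS37217 retinas and 9.80, 9.85 and 9.99 in saline retinas. The 24 h signals were 10.37, 10.34 and 10.24 in INS37217 retinas and 10.42, 10.28 and 10.31 in saline retinas. The 7 d signals were 9.37, 9.58 and 9.44 in INS37217 retinas and 9.23, 9.58 and 9.56 in saline retinas. The 3 times did not overlap: all 24 h arrays were highest and all 7 d arrays lowest. Between 2 h and 24 h the difference was 0.26 in INS37217 retinas (SE 0.11, adjusted p = 0.211), and Stat3 rose by 0.46 in saline retinas (SE 0.11, adjusted p = 0.0149). From 24 h to 7 d it fell by 0.85 in INS37217 retinas (SE 0.11, adjusted p = 0.000188) and fell by 0.88 in saline retinas (SE 0.11, adjusted p = 0.000222).

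At 7 d Stat3 also stood below its 2 h level. It fell by 0.59 in INS37217 retinas (adjusted p = 0.0028) and fell by 0.42 in saline retinas (adjusted p = 0.0292). The probe sets of Stat3 were not alike: 1460700_at fell by 1.00 in saline retinas from 24 h to 7 d (adjusted p = 0.0413), while 1424272_at differed by 0.10 (adjusted p = 0.993). From 2 h to 24 h 1460700_at differed by 0.39 in INS37217 retinas (adjusted p = 0.454, with the block 0.00334) and by 0.76 in saline retinas (adjusted p = 0.0527, with the block 1.89e-06). In that step 1424272_at differed by -0.24 in INS37217 retinas (adjusted p = 0.747) and by -0.13 in saline retinas (adjusted p = 0.805). With the mean of the 3 probe sets none of the 5 Stat3 calls held, with adjusted p of 0.0614 to 0.557. The saline rise was lost without saline 2 h replicate 1 or 2 or saline 24 h replicate 1 (adjusted p up to 0.0612), and the saline 7 d against 2 h call without saline 2 h replicate 2 or 3 or saline 7 d replicate 1 or 3 (up to 0.134).

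**Figure D2:**
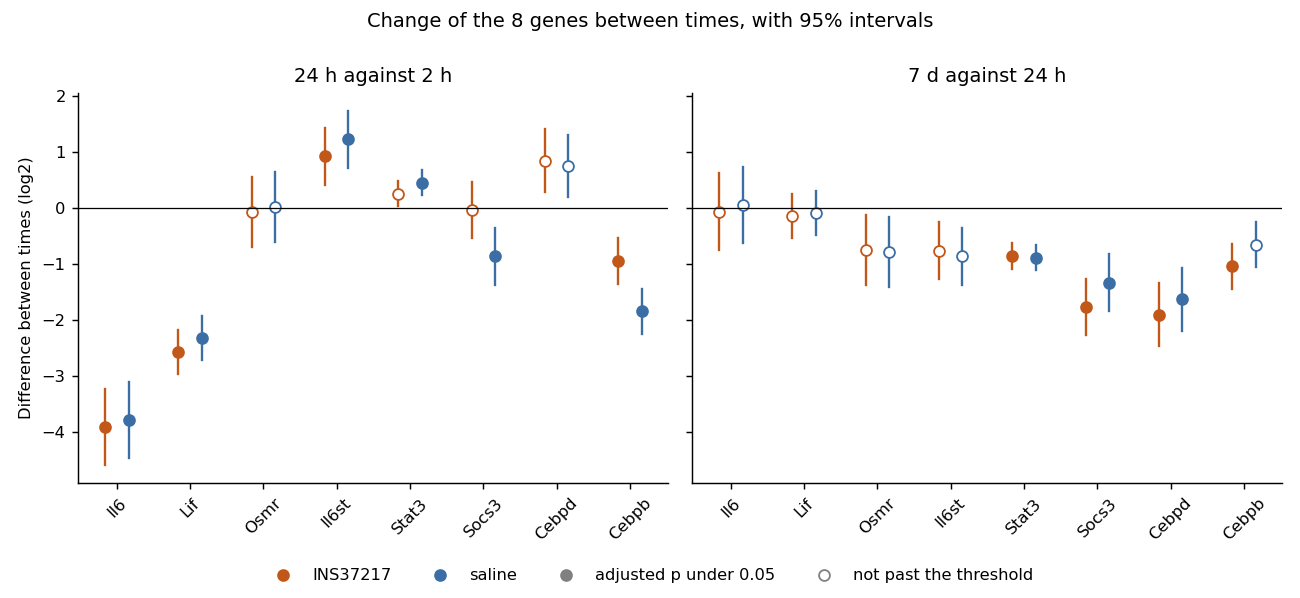
Difference in log2 signal between times for the 8 genes, 24 h minus 2 h on the left and 7 d minus 24 h on the right, with INS37217 left of saline for each gene. Lines are 95% intervals from the model without the block, and filled points passed an adjusted p of 0.05. Il6 and Lif lie between -3.91 and -2.32 in the first step and near 0 in the second, while Socs3 was at -0.03 in INS37217 and -0.86 in saline retinas in the first step.

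Socs3, the feedback inhibitor that STAT3 switches on, had 24 h signals close to those of 2 h in INS37217 retinas and fell between these times in saline retinas. At 2 h its signals were 9.32, 9.76 and 9.73 in INS37217 retinas and 9.34, 9.84 and 9.72 in saline retinas. Those of 24 h were 9.08, 9.83 and 9.82 in INS37217 retinas and 8.52, 8.99 and 8.81 in saline retinas. Those of 7 d were 7.37, 8.17 and 7.89 in INS37217 retinas and 7.19, 7.62 and 7.52 in saline retinas. The 2 arms overlapped at 2 h and at 7 d but not at 24 h, and all 7 d arrays lay below all earlier ones. From 2 h to 24 h the difference was -0.03 in INS37217 retinas (SE 0.24, 95% interval -0.53 to 0.48, adjusted p = 0.975), and Socs3 fell by 0.86 in saline retinas (SE 0.24, adjusted p = 0.0369). Between 24 h and 7 d it fell by 1.77 in INS37217 retinas (3.40-fold, SE 0.24, adjusted p = 0.000368) and fell by 1.33 in saline retinas (2.51-fold, SE 0.24, adjusted p = 0.00737).

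Its other probe sets moved the same way. In saline retinas from 2 h to 24 h, 1416576_at fell by 0.67 (adjusted p = 0.00414) and 1456212_x_at differed by -0.89 (adjusted p = 0.0546, with the block 0.00338). From 24 h to 7 d both fell in both arms, by 0.94 to 1.53, with adjusted p of 0.0165 or less. At 7 d the representative set stood below its 2 h level, where it fell by 1.79 in INS37217 retinas (adjusted p = 0.000169) and fell by 2.19 in saline retinas (adjusted p = 2.94e-05). The representative probe set carries the suffix x, which Affymetrix gives to sets with probes that may also bind other transcripts. Its saline fall from 2 h to 24 h was lost without saline 2 h replicate 2 or 3 or any 1 saline 24 h array (adjusted p up to 0.148), and that from 24 h to 7 d without saline 24 h replicate 2 (0.0531).

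The promoter of Socs3 is shown because STAT3 acts on it directly. The 250 bases before the start that RefSeq's promoter table lists lie at chr11:117969367-117969616 on the minus strand (GRCm38.p6). This start lies within the outer bounds of the gene, chr11:117966079-117970336, which also take in longer transcript models. The bases are printed 5′ to 3′, with capitals for TTCTTAGAA, the match to the STAT letters TTCNNNGAA.
Socs3: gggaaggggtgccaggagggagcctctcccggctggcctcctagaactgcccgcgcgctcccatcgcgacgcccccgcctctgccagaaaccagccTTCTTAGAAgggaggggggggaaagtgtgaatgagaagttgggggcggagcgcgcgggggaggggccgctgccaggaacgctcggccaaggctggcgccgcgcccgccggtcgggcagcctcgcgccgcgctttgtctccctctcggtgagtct
The match lies 154 to 146 bases before the start, at chr11:117969512-117969520. Of 32851 promoters of this length 7.02% held TTCNNNGAA, which reads the same on both strands, so the letters alone are common. The windows of Il6, Lif, Osmr, Il6st, Stat3 and Cebpb held no match to TTCNNNGAA, which says only that these letters are not in these windows.

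Cebpd and Cebpb encode C/EBP delta and C/EBP beta, transcription factors of the acute phase response, and their courses differed. Cebpd had signals of 9.83, 10.01 and 10.30 in INS37217 retinas and 9.36, 9.99 and 10.16 in saline retinas at 2 h. At 24 h they were 10.60, 11.06 and 11.03 in INS37217 retinas and 10.41, 10.75 and 10.62 in saline retinas. At 7 d they were 8.58, 9.30 and 9.11 in INS37217 retinas and 8.38, 9.27 and 9.25 in saline retinas. All 24 h arrays lay above all others and all 7 d arrays below, while the arms overlapped at every time. The 24 h minus 2 h difference was 0.85 in INS37217 retinas (SE 0.26, adjusted p = 0.0707, with the block 2.57e-05), and 0.76 in saline retinas (SE 0.26, adjusted p = 0.101, with the block 8.25e-05). Between 24 h and 7 d Cebpd fell by 1.90 in INS37217 retinas (3.73-fold, adjusted p = 0.000471) and fell by 1.63 in saline retinas (3.09-fold, adjusted p = 0.00308).

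Against 2 h, Cebpd at 7 d fell by 1.05 in INS37217 retinas (adjusted p = 0.0279), a call lost without INS37217 2 h replicate 2 or 3 or INS37217 7 d replicate 1 or 3 (adjusted p up to 0.135). In saline retinas the difference was -0.87 (adjusted p = 0.071, with the block 2.29e-05). With 1 array left out, the rise to 24 h passed in saline retinas without saline 7 d replicate 1 (adjusted p = 0.0451), in INS37217 retinas without saline 2 h replicate 1, saline 7 d replicate 1 or INS37217 7 d replicate 1 (0.0284 at the lowest), and the saline 7 d against 2 h difference without saline 2 h replicate 1 or INS37217 7 d replicate 1 (0.0277 at the lowest). The second probe set of Cebpd, 1456605_at, differed by 0.28 in INS37217 retinas (adjusted p = 0.306) and by -0.06 in saline retinas (adjusted p = 0.834) from 2 h to 24 h. From 24 h to 7 d it fell by 0.56 in INS37217 retinas (adjusted p = 0.0372), and in saline retinas it differed by 0.12 (adjusted p = 0.979), where the representative set fell by 1.63.

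Cebpb had signals of 9.25, 8.66 and 8.80 in INS37217 retinas and 9.32, 8.95 and 9.10 in saline retinas at 2 h. The 24 h signals were 8.29, 7.79 and 7.80 in INS37217 retinas and 7.68, 6.98 and 7.19 in saline retinas. The 7 d signals were 6.88, 7.01 and 6.88 in INS37217 retinas and 6.70, 6.52 and 6.67 in saline retinas. The arms overlapped at 2 h and were apart at 24 h and 7 d, and within each arm the 3 times were apart. Between 2 h and 24 h Cebpb fell by 0.94 in INS37217 retinas (1.92-fold, SE 0.19, adjusted p = 0.00549) and fell by 1.84 in saline retinas (3.58-fold, SE 0.19, adjusted p = 1.48e-05). From 24 h to 7 d it fell by 1.04 in INS37217 retinas (2.05-fold, SE 0.19, adjusted p = 0.0058), and the difference was -0.65 in saline retinas (SE 0.19, adjusted p = 0.156, with the block 0.00151). Over the whole course, 7 d against 2 h, it fell by 1.98 in INS37217 retinas (3.94-fold, adjusted p = 6.87e-06) and fell by 2.49 in saline retinas (5.63-fold, adjusted p = 6.47e-07). The second probe set, 1427844_a_at, fell by 1.05 in INS37217 retinas (adjusted p = 0.000359) and fell by 1.59 in saline retinas (adjusted p = 7.60e-06) from 2 h to 24 h.

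Counted over the axis, the members passed in the time comparisons more often than named genes at large. From 2 h to 24 h 4 of 8 passed in INS37217 retinas (1 higher, 3 lower), against 7.51% of all named genes (3.62% higher, 3.89% lower). In saline retinas 6 of 8 passed (2 higher, 4 lower), against 7.21% of all (4.01% higher, 3.2% lower). Between 24 h and 7 d 4 of 8 fell in INS37217 retinas and 3 of 8 in saline retinas, against 2.54% and 1.63% of all that passed in those arms and 1.46% and 1.17% that fell. Between 2 h and 7 d 6 of 8 fell in INS37217 retinas and 5 of 8 in saline retinas, against 5.65% and 5.13% that passed and 2.75% and 2.92% that fell. With the block the counts were 5 and 7, 6 and 6, and 7 and 8 for INS37217 and saline in these 3 comparisons, against 22.9% and 28.2%, 8.54% and 8.08%, and 18.6% and 21% of all. The members were chosen with results of these arrays known, so these shares describe them and test nothing.

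Markers of cell types and RNA quality also moved with time. From 2 h to 24 h 5 of 7 rod genes fell in INS37217 and 3 of 7 in saline retinas, and 4 of 5 and 3 of 5 cone genes did so. Of 13 microglia and macrophage genes 6 rose and 1 fell in INS37217 retinas, and 4 rose and 1 fell in saline retinas. Of 9 Müller glia genes 1 rose and 3 fell in each arm, and 2 of 8 neutrophil genes rose in each arm. Over all named genes 7.51% passed in INS37217 and 7.21% in saline retinas. All 5 lens genes rose in saline retinas and 0 of 5 passed in INS37217 retinas. From 24 h to 7 d 6 and 4 of the microglia and macrophage genes rose in INS37217 and saline retinas, as did 4 and 1 of 6 pigment epithelium genes. Of 6 fibroblast genes 3 rose in INS37217 and 1 fell in saline retinas. Of the Müller glia genes 4 rose and 1 fell in INS37217 retinas, and 2 rose and 1 fell in saline retinas. In each arm 3 of 5 cone genes rose and 2 of 8 neutrophil genes fell. Over all named genes 2.54% passed in INS37217 and 1.63% in saline retinas. The excess of 3′ over 5′ beta-actin signal was highest in saline retinas at 2 h, at 1.037, and between 0.603 and 0.65 in the groups of 24 h and 7 d. The part of these in the time courses of the 8 genes was not tested.

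Fixed by the same rule for each member, the genes of most similar course were named by Pearson's r over the 18 arrays after the mean of each replicate number was removed. The arrays fall into 3 times, so r mainly compares courses over time, and no p is given. For Il6 they were F3, Maff and Trib1 (r of 0.991, 0.991 and 0.987), and for Lif Maff, Srxn1 and Ptx3 (0.995, 0.993 and 0.992). For Il6st they were Aldh1l1, Ipo5 and Nsun4 (0.979, 0.978 and 0.975), for Stat3 Ahr, Fndc4 and Pcare (0.959, 0.953 and 0.937), and for Cebpd Ahr, Coq8b and Pcare (0.948, 0.942 and 0.938). Socs3 was closest to Irf1, Tmbim1 and Gadd45g (0.964, 0.956 and 0.951) and Cebpb to Nfkbiz, Fos and Fgl2 (0.986, 0.97 and 0.969). The representative probe set of Osmr passed no comparison without the block and was not matched.

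INS37217 against saline was the next question, asked at each time. Without the block 0 of 8 members passed at 2 h, 24 h or 7 d, against 0.121%, 0.137% and 0.137% of all named genes. At an unadjusted p under 0.05 there were 1, 2 and 0 of 8, against 357, 423 and 282 of 12393 named genes. With the block 0, 2 and 0 passed, against 1.07%, 1.03% and 0.718% of all. The 2 were Socs3 and Cebpb at 24 h. Group ranges were apart for 2, 2 and 1 of 8 members, against 6.51%, 8.04% and 4.21% of all.

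At 24 h Socs3 averaged 9.58 in INS37217 retinas and 8.77 in saline retinas, a difference of 0.80 (1.75-fold, SE 0.24, 95% interval 0.30 to 1.31, adjusted p = 0.557, with the block 8.13e-05). It was higher in 3 of 3 same-numbered pairs, which follows from the ranges of the 2 groups being apart. Its other probe sets differed by 0.49 (1416576_at, adjusted p = 0.395, with the block 0.0437), and by 0.47 (1456212_x_at, adjusted p = 1, with the block 0.466). Cebpb averaged 7.96 in INS37217 retinas and 7.28 in saline retinas, a difference of 0.68 (1.60-fold, SE 0.19, 95% interval 0.27 to 1.08, adjusted p = 0.483, with the block 0.00509). Cebpb was also higher in 3 of 3 pairs, again because the ranges were apart. Its second probe set differed by 0.33 (adjusted p = 1, with the block 0.415). The arrays of the 2 groups did not overlap on any of these 5 probe sets except 1456212_x_at, as the plot of all Socs3 and Cebpb probe sets shows.

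**Figure D3:**
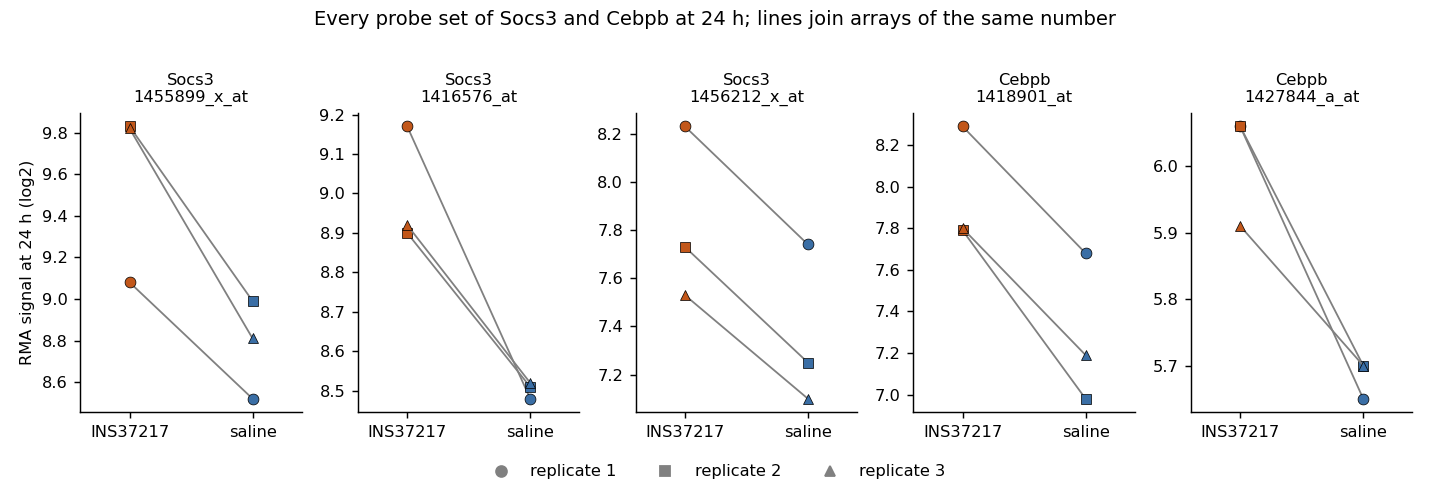
Deposited RMA signal (log2, vertical axis, a range of its own in each panel) at 24 h on every probe set of Socs3 and Cebpb, INS37217 left and saline right. Points are single arrays and lines join arrays of the same replicate number. All lines run downward from INS37217 to saline, with mean differences of 0.33 to 0.80.

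Some leukocyte markers moved beside these 2 genes at 24 h. Of 8 measured neutrophil genes 7 had higher means in INS37217 retinas and 1 rose (2 with the block), and the mean of the list was 6.55 to 6.62 on INS37217 arrays and 5.96 to 6.17 on saline arrays. S100a8 averaged 7.81 in INS37217 and 6.33 in saline retinas, and S100a9 averaged 8.96 in INS37217 and 7.34 in saline retinas. The remaining neutrophil genes differed less, with means in the range of the background guide genes. In INS37217 and saline retinas Cxcr2 averaged 5.62 and 5.18, Ngp 6.01 and 5.77, and Elane 6.86 and 6.65. Ltf averaged 6.60 and 6.50, Camp 5.40 and 5.39, and Mpo 5.36 and 5.48. The list median difference was 0.22. Over all genes 5889 of 12393 had higher means in INS37217 retinas, and of the 14 background guide genes 11 did, with a median difference of 0.19. Of 13 microglia and macrophage genes 10 had higher means and 1 rose (3 with the block), with list means of 6.76 to 6.81 on INS37217 arrays and 6.42 to 6.53 on saline arrays. Of 9 Müller glia genes 1 had a higher mean and 0 passed (4 at unadjusted p under 0.05, against 423 of 12393 genes, and 3 fell with the block). Of 5 cone genes 0 had a higher mean and 0 passed (2 fell with the block), with a list median of -0.32. Array signals have no true 0, and the part of these cells in the Socs3 and Cebpb differences was not tested.

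At 2 h the differences on the representative probe sets were small. Lif averaged 8.61 in INS37217 retinas and 8.21 in saline retinas, with no overlap, a difference of 0.40 (SE 0.19, 95% interval 0.00 to 0.79, adjusted p = 1, with the block 0.0943). Stat3 averaged 10.06 in INS37217 retinas and 9.88 in saline retinas, also with no overlap, a difference of 0.18 (SE 0.11, adjusted p = 1). Il6 differed by 0.27 (95% interval -0.41 to 0.95) and Osmr by 0.40 (95% interval -0.23 to 1.02, without the block). Osmr was higher in INS37217 retinas in 3 of 3 same-numbered pairs at each time, by 0.31 to 0.56 at 2 h, and did not pass with the block either (SE 0.13, adjusted p = 0.148). Receptor differences were larger on other probe sets: 1418675_at of Osmr differed by 0.74 (SE 0.14, adjusted p = 0.0558, with the block 0.00237), and 1460295_s_at of Il6st differed by 0.65 (SE 0.16, adjusted p = 0.234, with the block 0.00153). Sample measures moved with these groups. Beta-actin probe sets at the 3′ end exceeded those at the 5′ end by 0.747 (SD 0.042) in INS37217 retinas and by 1.037 (SD 0.093) in saline retinas (n = 3 each). All 5 lens genes had higher means in INS37217 retinas (3 rose), with list means of 11.25 to 11.36 on INS37217 arrays and 10.45 to 10.71 on saline arrays. Of 6 pigment epithelium genes 2 fell (3 with the block), and the list means were 8.51 to 8.88 on INS37217 arrays and 8.88 to 9.16 on saline arrays. Of 6 fibroblast genes 1 had a higher mean, 0 passed and 1 fell with the block, and Dcn averaged 6.68 in INS37217 and 7.81 in saline retinas. The part of any of these in the receptor differences was not tested.

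At 7 d all 8 members had higher means in INS37217 retinas on the representative probe sets, as did 5061 of 12393 named genes. The median difference was 0.07 (-0.02 over all genes), and no member was past the threshold in either fit. Stat3, Il6 and Il6st each differed by only 0.01 and Cebpd by 0.03 (SE 0.11 to 0.32). The other probe set of Cebpd differed by -0.23, and those of Stat3 by -0.003 and 0.04. All other probe sets of Lif, Osmr, Il6st, Socs3 and Cebpb had higher means in INS37217 retinas. Socs3 averaged 7.81 in INS37217 and 7.44 in saline retinas (difference 0.37, SE 0.24, adjusted p = 1). Cebpb averaged 6.92 in INS37217 and 6.63 in saline retinas with no overlap (difference 0.29, SE 0.19, adjusted p = 1), and Osmr 8.02 in INS37217 and 7.68 in saline retinas (difference 0.34, SE 0.29, adjusted p = 1). Their 95% intervals reach 0.87 for Socs3, 0.70 for Cebpb and 0.96 for Osmr. All 6 fibroblast genes had higher means in INS37217 retinas at 7 d (3 rose, 4 with the block, list median 1.03), with list means of 7.30 to 7.62 on INS37217 arrays and 6.32 to 6.49 on saline arrays. Of 13 microglia and macrophage genes 12 had higher means (1 rose, 4 with the block), with list means of 7.44 to 7.66 on INS37217 arrays and 7.06 to 7.19 on saline arrays. Their part in the differences of the members was not tested.

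**Figure D4:**
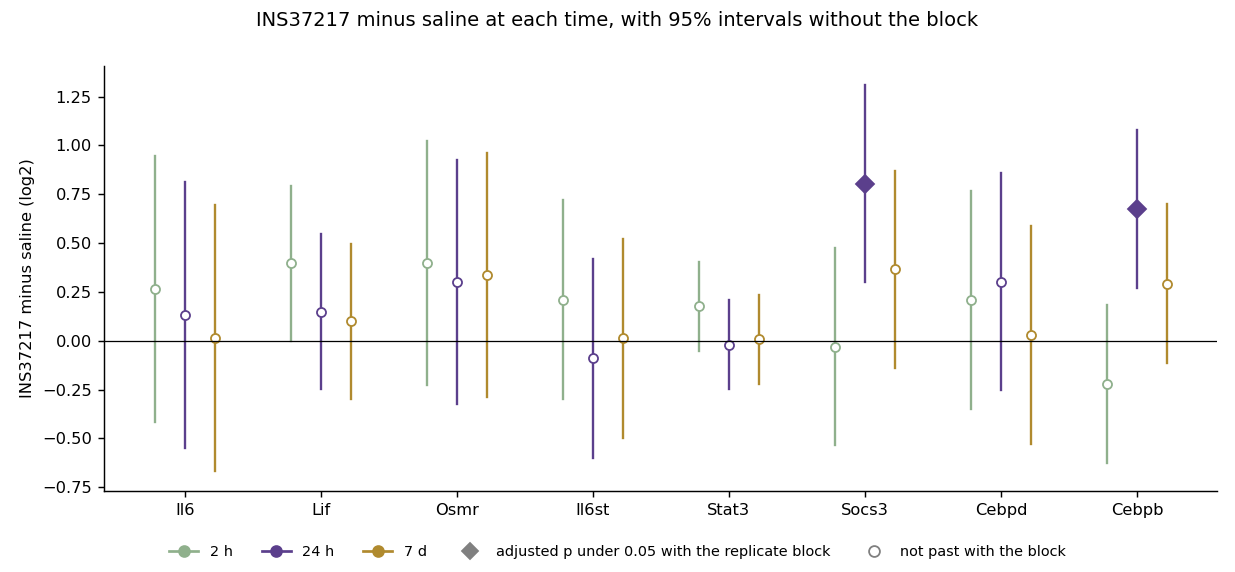
INS37217 minus saline difference in log2 signal for the 8 genes at 2 h, 24 h and 7 d, with 95% intervals from the model without the block. Filled diamonds passed an adjusted p of 0.05 with the replicate block, and open circles did not. The 2 diamonds are Socs3 (0.80) and Cebpb (0.68) at 24 h.

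Whether the INS37217 difference itself changed with time was tested as an interaction. Between 2 h and 24 h it grew by 0.83 for Socs3 (SE 0.34, adjusted p = 1, with the block 0.00363), and by 0.90 for Cebpb (SE 0.27, adjusted p = 0.844, with the block 0.00992). These are the representative probe sets. With the block the change passed on 1 of 3 Socs3 probe sets (changes of 0.57 to 0.83) and on 1 of 2 Cebpb probe sets (0.54 to 0.90). Without the block 0 of 8 members passed, against 0.0484% of all named genes. At an unadjusted p under 0.05 there were 2 members, against 263 of 12393 named genes. With the block Socs3 and Cebpb passed, against 0.871% of all. In the other 2 steps, from 24 h to 7 d and from 2 h to 7 d, 0 of 8 passed in either fit. Of all named genes 0.0484% and 0.0807% passed without the block and 0.29% and 0.662% with it. In these steps 0 members had an unadjusted p under 0.05, against 230 and 289 of 12393 named genes.

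Other genes of the pathway were taken from lists, which do not hold the 8 members. Of the genes named from them, Clcf1, Saa3, Fgf2 and Cxcl10 had all their values within the range of the background guide genes. Stat2, Edn2 and Ednrb had all their 2 h values there, and Stat2, Ednrb and Ccl2 had all their 7 d values there. The folds of all these genes are thus approximate. Some values of Timp1, Lcn2, Junb and Pias3 lay in this range too. Of 10 further ligands 4 were measured, and Clcf1, a gp130 cytokine that acts on the ciliary neurotrophic factor receptor, fell from 2 h to 24 h by 0.57 in INS37217 retinas (adjusted p = 0.00666) and fell by 0.56 in saline retinas (adjusted p = 0.00718). Osm and Cntf were not analysed here. Of 5 further receptor genes 0 passed in any comparison without the block. At an unadjusted p under 0.05 there was 1, in saline from 2 h to 24 h, against 2283 of 12393 named genes. With the block 3 passed in saline and 1 in INS37217 retinas from 2 h to 24 h, all lower. Of all named genes 28.2% and 22.9% passed there, so the INS37217 count is near the background. Of 9 kinase and STAT genes 1 rose and 0 fell from 2 h to 24 h in each arm. Of all named genes 7.51% passed in INS37217 and 7.21% in saline retinas (3.62% and 4.01% higher), so these counts are near the background. With the block 5 passed in INS37217 and 4 in saline retinas, against 22.9% and 28.2% of all. The gene that rose was Stat2, a factor of type I interferon signalling, by 2.19 in INS37217 retinas (4.57-fold, adjusted p = 9.64e-07) and by 1.91 in saline retinas (3.75-fold, adjusted p = 6.34e-06). Between 24 h and 7 d it fell by 2.19 in INS37217 retinas (adjusted p = 2.80e-06) and fell by 2.00 in saline retinas (adjusted p = 1.47e-05).

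Among 15 further negative regulators, 3 passed from 2 h to 24 h in INS37217 retinas (2 higher, 1 lower) and 1, lower, in saline retinas, against 7.51% and 7.21% of all named genes, so the saline count is near the background. With the block 5 and 4 passed, against 22.9% and 28.2% of all. Pias3, an inhibitor that binds STAT3, fell by 1.17 in INS37217 retinas (adjusted p = 0.0176) and fell by 1.23 in saline retinas (adjusted p = 0.0127). Ptpn1, a phosphatase that acts on JAK2, rose by 0.47 in INS37217 retinas (adjusted p = 0.0359). It fell from 24 h to 7 d by 0.82 in INS37217 retinas (adjusted p = 0.00126) and fell by 0.68 in saline retinas (adjusted p = 0.0103). Of 3 further C/EBP family genes, Cebpg fell by 0.46 in saline retinas from 24 h to 7 d (adjusted p = 0.0324).

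The 25 textbook targets of STAT3 did not move one way between 2 h and 24 h. In INS37217 retinas 9 rose and 4 fell, against 3.62% higher and 3.89% lower of all named genes, with a list median of 0.20 (-0.06 over all genes). In saline retinas 6 rose and 5 fell, against 4.01% and 3.2%, with a median of 0.04 (-0.05 over all genes). Lcn2, an iron-carrier binding protein, rose 11.3-fold in INS37217 retinas and 7.94-fold in saline retinas. Junb, an immediate early factor, fell by 0.58 in saline retinas (adjusted p = 0.0143). In INS37217 retinas Junb did not fall, with means of 8.62 at 2 h and 8.82 at 24 h. From 24 h to 7 d every target that passed was lower, 11 in INS37217 and 8 in saline retinas (1.46% and 1.17% of all genes fell), with medians of -0.44 and -0.36 (0 and 0.02 over all genes). Timp1, a protease inhibitor, fell by 1.11 in INS37217 retinas (adjusted p = 0.000448) and fell by 1.36 in saline retinas (adjusted p = 9.76e-05). Many of these genes also answer other factors, NF-kB among them.

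Without the block the targets that passed between the arms were all higher in INS37217 retinas. At 2 h, 24 h and 7 d 1, 2 and 2 of 25 rose, against 0.121%, 0.137% and 0.137% of all genes that passed, and the list medians were 0.04, 0.13 and 0.08 (0.00, -0.01 and -0.02 over all genes). Saa3, an acute phase protein, had signals of 6.20, 6.60 and 6.03 in INS37217 retinas and 5.19, 5.08 and 5.26 in saline retinas at 24 h, and rose by 1.10 (SE 0.16, adjusted p = 0.0071). Its 2 h and 7 d means lay between 5.13 and 5.29 in both arms, so only INS37217 24 h stood apart. With the block 4, 6 and 3 of 25 passed, against 1.07%, 1.03% and 0.718% of all, and 1 of those was lower. It was Junb at 2 h, which had signals of 8.77, 8.51 and 8.58 in INS37217 retinas and 9.39, 9.22 and 9.33 in saline retinas (difference -0.69, SE 0.13, adjusted p = 0.0628, with the block 0.00183). Lcn2 rose at 2 h and at 24 h and differed by 0.59 at 7 d (adjusted p = 0.0563, with the block 0.00475), and Timp1 and Serpina3n, a protease inhibitor, rose at 7 d. At 24 h Timp1 averaged 9.58 in INS37217 and 8.87 in saline retinas (difference 0.71, adjusted p = 0.142, with the block 0.00309).

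A list of 9 genes known from mouse retina to answer LIF or to accompany it moved in both directions. Of them 4 rose and 4 fell from 2 h to 24 h in INS37217 retinas, and 5 rose and 4 fell in saline retinas, against 7.51% and 7.21% of all named genes that passed in those arms. Edn2, an endothelin of injured photoreceptors, rose by 2.76 in INS37217 retinas (6.79-fold, adjusted p = 1.96e-09) and by 3.42 in saline retinas (10.7-fold, adjusted p = 3.87e-10). Ednrb, an endothelin receptor of Müller glia, rose by 2.01 in INS37217 retinas (adjusted p = 8.04e-06) and by 1.42 in saline retinas (adjusted p = 0.000322). Fgf2, a survival factor for photoreceptors, rose by 1.89 in INS37217 retinas (adjusted p = 0.00422) and by 1.77 in saline retinas (adjusted p = 0.00689). The fallers were Ccl2, a monocyte chemokine, with Cxcl10, Mt1 and Mt2. Between 24 h and 7 d 6 of 9 fell in each arm, against 1.46% of all named genes in INS37217 and 1.17% in saline retinas. Between the arms 0 of 9 passed at 2 h, 24 h or 7 d without the block, against 0.121%, 0.137% and 0.137% of all. At an unadjusted p under 0.05 there were 5, 5 and 1, against 357, 423 and 282 of 12393 named genes. With the block 2, 2 and 1 passed, against 1.07%, 1.03% and 0.718% of all.

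**Figure D5:**
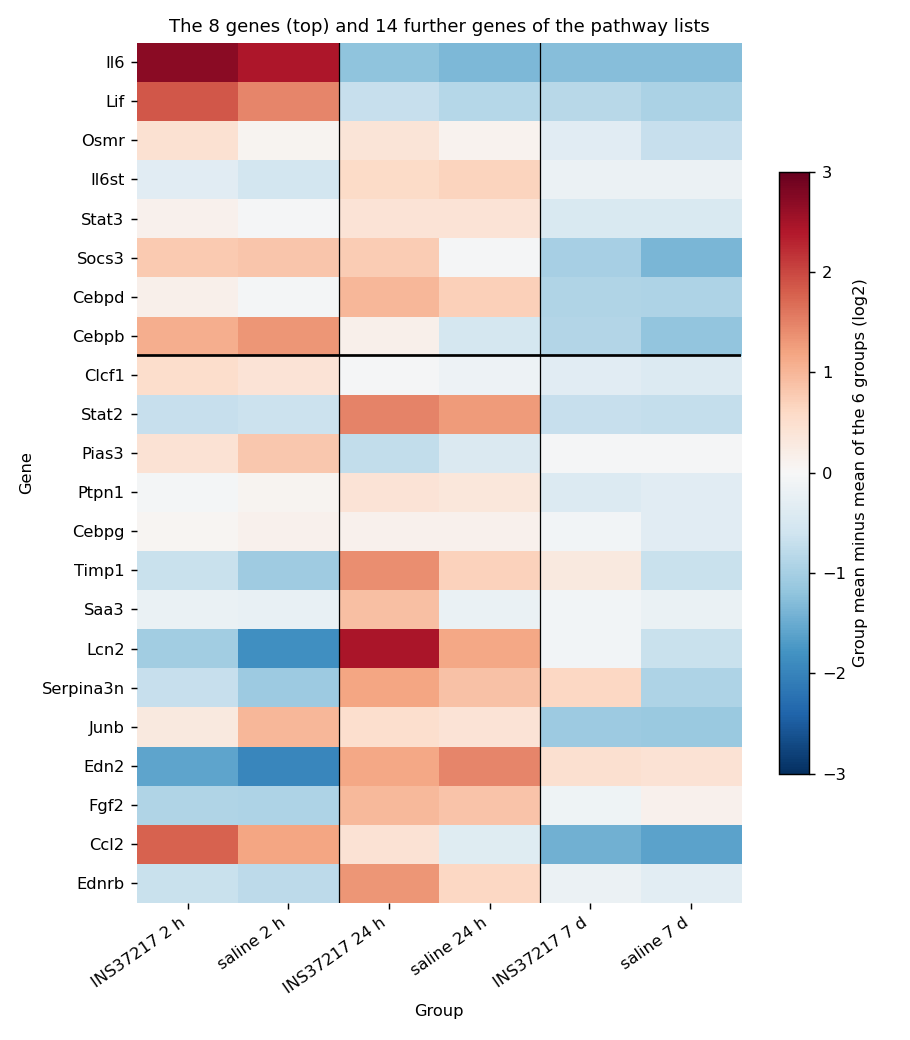
Group mean minus the mean of the 6 groups (log2 signal, colour scale from -3 to 3) for the 8 genes above the line and 14 further pathway genes below it. Columns are the 6 groups, INS37217 left of saline at each time. Il6, Lif and Ccl2 are highest at 2 h, and Il6st, Stat3, Cebpd, Stat2, Timp1, Lcn2 and Fgf2 at 24 h.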

How the data were processed

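RNA of retina pools was measured on 18 Affymetrix arrays. The authors deposited RMA values in log2, per the submitters' processing notes, which give no version. Of 22690 probe sets 64 controls were left out and 22626 tested; 20380 named 1 gene, 691 several and 1555 none. Symbols of the array's dated annotation were updated through Entrez IDs to RefSeq (GRCm38.p6). Groups came from the titles. Tests used R 4.3.3 and limma 3.58.1 (lmFit, contrasts.fit, eBayes) with 1 mean per group over the 18 arrays and 12 contrasts, leaving 12 residual and 3.3 prior degrees of freedom (10 and 10.5 with the block). Deviations from the group means correlated at 0.426 to 0.921 in each of 45 same-numbered pairs of arrays in different groups, so the numbers were taken to pair the arrays, though the labels used here do not say what they stand for. Replicates 2 and 3 of different groups also correlated, at 0.363 to 0.725 in 30 pairs, and replicate 1 with either at -0.847 to -0.501 in 60, so the block mostly sets replicate 1 apart. P-values without the block measure the spread between pools, including the deviation that arrays of the same number share. Those with the block leave the shared part out. In both, 3 arrays per group limit the precision.

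The members and lists, and the rule for named genes (those that passed between arms, plus up to 4 of largest change per list with time in saline), were chosen with earlier results of these data known. Genes with the most similar course were taken by the highest r. The fits were tested on simulated data. Promoter windows were searched on both strands. Alternatives were another normalization, equal medians, a level filter, trend and robust eBayes, fewer arrays, the block, probe set means and single omissions.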

Additional observations from a re-analysis of the deposited data

Results flagged for a closer look

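On the representative probe sets of Socs3 and Cebpb the INS37217 minus saline difference changed between 2 h and 24 h, by a test of that change with the replicate block. It passed on 1 of 3 Socs3 probe sets and on 1 of 2 Cebpb probe sets. For Socs3 the change was 0.83 (SE 0.34, limma adjusted p = 1, and 0.00363 with the block): the difference was 0.80 at 24 h and -0.03 at 2 h. For Cebpb it was 0.90 (SE 0.27, limma adjusted p = 0.844, and 0.00992 with the block): the difference was 0.68 at 24 h and -0.22 at 2 h. The microglia and neutrophil values at 24 h and the lens values at 2 h are given with the comparisons. At 2 h the list means of the microglia and macrophage genes were 6.13 to 6.34 on INS37217 arrays and 6.12 to 6.28 on saline arrays. Those of the neutrophil genes at 2 h were 5.81 to 6.08 on INS37217 arrays and 5.70 to 6.13 on saline arrays. The lens list means at 24 h were 11.29 to 11.34 on INS37217 arrays and 11.29 to 11.44 on saline arrays.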

How the results depend on the processing

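No direction of a called value reversed under any alternative. The number of the 8 genes past the threshold moved by over 1.5 times as follows. With the replicate block it was 2 for INS37217 against saline at 24 h (0 without it), 6 for saline 7 d against 24 h (3 without it), 8 for saline 7 d against 2 h (5 without it) and 2 for the change of the INS37217 difference from 2 h to 24 h (0 without it). With replicates 2 and 3 alone the counts were 2, 6, 8 and 2. With the mean of all probe sets of a gene 1 passed at 24 h between the arms. With only the arrays compared, 1 passed for saline 7 d against 24 h and 2 for INS37217 7 d against 24 h (4 otherwise). In all, 28 of 96 values passed without the block and 43 with it: 15 gained, all given in the report, and 0 lost, so the block changed no other call. Single omissions gave 4 to 7 for saline 24 h against 2 h (6 with all arrays), 2 to 3 for saline 7 d against 24 h, 4 to 6 for saline 7 d against 2 h, 3 to 5 for INS37217 24 h against 2 h (4 with all arrays), 4 for INS37217 7 d against 24 h, 5 to 6 for INS37217 7 d against 2 h, and 0 for the comparisons between the arms and their changes. With only the arrays compared, Stat3 lost 4 of its 5 calls, Cebpd 2, and Socs3 and Cebpb 1 each; the smaller number of arrays leaves fewer residual degrees of freedom. The filter on level left Il6 out, so it has no value there. Which of the later Il6, Lif and Cebpb signals lie above background could not be read from the deposited values.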
